A study of Mus musculus with 4 samples.

Results

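Resting type 1 conventional dendritic cells (cDC1) of the mouse thymus were chosen cell by cell from their unique molecular identifier (UMI) counts, where 1 UMI stands for 1 captured RNA molecule. A cell was taken with at least 2 UMIs of Xcr1 and at least 2 of Naaa, at most 1 UMI of Ccr7, fewer than 30 UMIs of C1qa, C1qb and C1qc together, and fewer than 10 UMIs over 6 cell cycle genes (Mki67, Top2a, Birc5, Nusap1, Cenpf and Ube2c). This gate kept 3423 of the 23549 cells with 1000 to 7000 detected genes and at most 10% mitochondrial UMIs in 3 libraries. Those libraries held 23771 barcodes, and the series of 4 libraries held 29271.

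The study asked which macrophages live in the thymus and sorted fluorescent thymus cells from 2 reporter strains on a C57BL/6 background for droplet RNA sequencing of transcript 3' ends. MAFIA mice, with genotype Csf1r-EGFP-NGFR/FKBP1A/TNFRSF6, carry EGFP and an inducible suicide receptor under the Csf1r promoter, and were 5 weeks old. Cd11cYFP mice, with genotype Itgax-Venus, carry a yellow fluorescent protein under the Itgax (CD11c) promoter, and were 9 weeks old. Thymuses were digested with collagenase P and DNase I and enriched on Percoll before GFP+ or YFP+ cells were sorted. Because each promoter set which cells entered the sort, the shares below are shares of sorted cells and not of the thymus. The study's methods name 1 female MAFIA mouse and 2 male Cd11cYFP mice, so reporter, sex, age and mouse cannot be told apart. In the population comparisons p-values measure how differences within a library vary between libraries of single mice. In the strain comparison they rest on the spread between the 2 Cd11cYFP libraries.

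Conventional dendritic cells take up antigen and present it to T cells, and in the thymus they present self antigens to developing thymocytes. The cDC1 lineage depends on the transcription factors Irf8 and Batf3, takes up material from dead cells, and is known for cross-presentation, the loading of engulfed antigen onto MHC class I. Xcr1 is the receptor for the chemokine Xcl1, and Naaa encodes a lysosomal amidase that hydrolyses N-acylethanolamines. When dendritic cells mature they gain Ccr7, a chemokine receptor that draws them to the thymic medulla or to lymph nodes, together with costimulatory ligands. The other main lineage, cDC2, is marked by Sirpa and uses Irf4.

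The 250 bases before the annotated start of 3 genes that carry the account are printed here in the direction of transcription, from the GRCm39 reference with GENCODE starts, whichever assembly the reads were counted on. Xcr1 and Naaa are the genes that chose the cells, and Cd207, which encodes the lectin langerin, was the identity gene that varied most between libraries. All 3 genes lie on the minus strand, and the stretches are chr9:123691095-123691344 for Xcr1, chr5:92426086-92426335 for Naaa and chr6:83654840-83655089 for Cd207. Capitals mark the match to TGANTCA, the motif bound by AP-1 factors.
Xcr1: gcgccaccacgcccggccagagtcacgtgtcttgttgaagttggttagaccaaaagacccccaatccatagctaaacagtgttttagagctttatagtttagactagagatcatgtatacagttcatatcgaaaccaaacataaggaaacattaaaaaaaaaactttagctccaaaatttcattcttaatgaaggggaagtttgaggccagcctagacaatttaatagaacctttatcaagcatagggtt
Naaa: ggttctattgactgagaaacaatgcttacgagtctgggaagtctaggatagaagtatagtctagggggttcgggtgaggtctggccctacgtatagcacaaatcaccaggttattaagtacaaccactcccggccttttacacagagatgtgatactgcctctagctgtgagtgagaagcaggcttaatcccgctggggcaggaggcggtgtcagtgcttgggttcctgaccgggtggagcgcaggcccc
Cd207: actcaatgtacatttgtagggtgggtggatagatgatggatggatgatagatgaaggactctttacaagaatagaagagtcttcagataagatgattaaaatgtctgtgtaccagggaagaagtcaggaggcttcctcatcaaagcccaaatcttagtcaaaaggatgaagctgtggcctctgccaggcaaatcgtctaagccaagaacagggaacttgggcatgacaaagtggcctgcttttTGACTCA

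In the Cd207 promoter the match was TGACTCA, 7 bases before the start. Searched on both strands of windows of the same length, TGANTCA was in 1 of 24 promoters (Cd207) of the cDC1 identity genes described below with Xcr1 and Naaa, and in 6.17% of all 21770 promoters. The interferon response motif GAAANNGAAA was in 2 of the 24 (Gpr141b and Tlr11) and in 3.32% of all. The composite motif of ETS and IRF factors, GGAANNGAAA, was in 1 of the 24 (Cd8a) and in 2.54% of all, and the letters of these last 2 motifs can overlap. These are matches of letters in 1 window and not binding sites.

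MAFIA replicate 2 gave 585 members from 6219 cells (9.41%, with an exact binomial 95% interval of 8.69 to 10.2). Cd11cYFP replicate 1 gave 815 from 7646 (10.7%, 9.98 to 11.4) and Cd11cYFP replicate 2 gave 2023 from 9684 (20.9%, 20.1 to 21.7). Their share was 13.7% ± 6.30 (SD, n = 3 libraries), and the 2 Cd11cYFP libraries differed from each other by more than MAFIA replicate 2 differed from Cd11cYFP replicate 1. The intervals cover counting error only. Median depth in members was 25045, 23767 and 20117 UMIs per cell in the order above, against 17492, 15734 and 17170 over all filtered cells. Their summed counts came to 14597137, 19634435 and 41994324 UMIs. Of the members' barcodes, 1 occurred in both Cd11cYFP libraries, and 0 were shared between MAFIA replicate 2 and either of them.

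MAFIA replicate 1 was outside the rule and was shallower, with a median of 3979 UMIs per cell. Its 93 cells that met the gate (1.69% of 5493, 1.37 to 2.07) had a median of 2 Xcr1 UMIs and summed macrophage markers of 2692 CPM, UMI counts scaled to a common library total, against 72.4 to 121 CPM in the members. That library was left out of all comparisons.

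Because UMIs of Xcr1 and Naaa chose the cells, their values are a description. Median Xcr1 was 18, 14 and 13 UMIs per member in MAFIA replicate 2, Cd11cYFP replicate 1 and Cd11cYFP replicate 2, and the highest cells held 53, 43 and 62. Median Naaa was 20, 19 and 14 UMIs, with highest cells at 75, 76 and 75. Few cells lay at the Xcr1 limit, with 15, 19 and 35 members at exactly 2 UMIs and 38, 33 and 36 cells at 1 UMI that met every other condition. The Ccr7 limit was busier, with 58, 103 and 302 members at 1 UMI and 9, 28 and 65 cells just outside at 2 UMIs. At the cell cycle limit 5, 12 and 29 members held 9 UMIs, and 9, 17 and 21 cells held 10. Most members had few cell cycle UMIs: 39.5%, 37.5% and 42.2% had 0, and 14.5%, 17.7% and 14.0% had 4 to 9. Before the Ccr7, C1q and cell cycle conditions the Xcr1 and Naaa limits gave 946, 1302 and 3102 cells, and the cell cycle limit removed the largest number of these in each library.

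The label was set beside markers of the lineage and of other cell types. All these markers were chosen with earlier results of these data known, so the lineage markers describe the members and do not test the label. Summed markers of B cells were at 29.2 to 40.1 CPM in members, of T cells at 49.4 to 69.6, of plasmacytoid dendritic cells at 114 to 157, of thymic epithelium at 40.4 to 120, of neutrophils at 0.509 to 9.18, of fibroblasts at 0.343 to 7.48 and of red cells at 0.0509 to 0.685. Monocyte markers summed to 404 to 1032 CPM over 5 genes, of which Plac8, a gene of several blood cell types, made up 323, 861 and 507 CPM, while Chil3 had no UMI in either Cd11cYFP library. The gate itself bounded C1q, so macrophage markers are no check, but Mertk, outside the gate, was at 1.23, 0.255 and 0.524 CPM. Clec9a, a receptor for actin exposed on dead cells, had a UMI in 92.9% ± 1.03 of members as sequenced and in 38.8% ± 0.674 after each cell was reduced to 3000 UMIs, against 0.391% ± 0.116 of reduced B cells, which should lack it. Median depth of those B cells was 10766 to 13243 UMIs. Ppt1, a lysosomal thioesterase, was in 97.5% ± 1.23 of reduced members against 15.7% ± 1.26 of B cells. Sirpa, the cDC2 marker, was in 2.19% ± 1.01 of reduced members and in 8.18% ± 2.08 of B cells. With B cells above the members, they give no background for this gene. Every cell in these populations held more than 3000 UMIs, so none was left out.

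3 further populations of the same libraries served for comparison, and none of them was part of the members. Cd209a dendritic cells (965 cells: 231, 351 and 383) had at least 2 UMIs of the lectin Cd209a, none of Xcr1, at most 1 each of Siglech and Cd79a, and the members' limits on Ccr7, C1q and cell cycle genes. Maturing cells (683 cells: 93, 154 and 436) had at least 2 UMIs each of Xcr1 and Ccr7 with the same limits on C1q and cell cycle genes and no condition on Naaa. Proliferating cells (1223 cells: 276, 326 and 621) met the member gate except for 10 or more cell cycle UMIs. Counts were summed per library and population and fitted by edgeR with the library as a block, so each library was its own control, and 13031 genes were tested. An adjusted p is from edgeR's quasi-likelihood test with Benjamini-Hochberg adjustment over all genes tested, and a log2 difference is resting minus the other population. The 3 comparisons share the resting sums and are not independent. Genes of the gates separate the populations by construction, so they have no test here, and genes that travel with a gate gene describe what the gate took. CPM values are normalised for library composition and compare a gene between samples, not genes with each other.

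The first comparison set the members against Cd209a dendritic cells. Of 13031 genes, 2764 were higher in resting cDC1 (21.2%) and 2855 lower (21.9%), and all 22 genes of the cDC1 identity list were higher, with a median log2 difference of 3.57 against -0.01 over all genes. The list was chosen with earlier results of these data known and the gate took Xcr1, so this describes the population. Log2 differences within the list ran from 0.68 for Septin3, a cytoskeletal septin, to 8.19 for Cd207. Of the 17 tested cDC2 identity genes 16 were lower, with a list median of -4.27. Mgl2, a lectin, was at 28.5, 5.97 and 18.8 CPM in resting cDC1 against 1044, 306 and 771. The remaining gene, Clec12a, a lectin receptor for uric acid crystals, was higher at 163, 204 and 205 CPM against 29.9, 71.3 and 44.4 (log2 2.01).

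Irf8, the factor the lineage depends on, was at 2094, 2024 and 1907 CPM in resting cDC1 of MAFIA replicate 2, Cd11cYFP replicate 1 and Cd11cYFP replicate 2, and at 40.0, 88.0 and 47.8 CPM in Cd209a dendritic cells. The groups lay far apart, 35.1-fold (log2 5.13, SE 0.19). Batf3, its partner, was at 164, 182 and 166 CPM against 83.7, 69.9 and 87.4, 2.12-fold higher (log2 1.08, SE 0.10). Id2, an inhibitor of other lineage factors, was 4.38-fold higher (log2 2.13, SE 0.14). In the other direction Irf4, the cDC2 factor, was at 1.53, 2.46 and 4.35 CPM against 88.5, 62.2 and 96.0 (log2 -4.82, SE 0.18). Zeb2, a repressor used by cDC2, was at 6.73, 11.6 and 9.22 CPM against 231, 206 and 203 (log2 -4.49, SE 0.22). Over the 20 lineage factors 5 were higher and 10 lower in resting cDC1.

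Receptors and other genes of the cDC1 list follow. Clec9a was at 167, 150 and 164 CPM against 4.09, 5.32 and 5.96, 31.0-fold higher (log2 4.96, SE 0.16). Cd207 was at 411, 64.3 and 193 CPM in resting cDC1 and at 0.930, 0.304 and 0.873 CPM in Cd209a dendritic cells (log2 8.19, SE 0.28). The libraries of members lay far apart, and Cd209a dendritic cells were under 1 CPM in each. Itgae, the alpha chain of an integrin that binds E-cadherin, was at 303, 156 and 218 CPM against 60.6, 47.4 and 74.7 (log2 1.84, SE 0.14). Gcsam, a signalling adaptor, was at 81.5, 91.7 and 78.4 CPM against 9 UMIs in all Cd209a dendritic cells (log2 7.44, SE 0.37). Plpp1, a lipid phosphatase, and Gpr141b, an orphan receptor, were 53.8-fold and 55.7-fold higher. Cd36, a scavenger receptor outside the list, was at 106, 112 and 125 CPM against 4.46, 1.67 and 0.873 (log2 5.70, SE 0.24, adjusted p = 3.59e-09). Cxcr3, the receptor for Cxcl9 and Cxcl10, was at 19.9, 21.0 and 23.2 CPM against 18 UMIs in all (log2 4.48, SE 0.33, adjusted p = 3.71e-07).

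**Figure D1:**
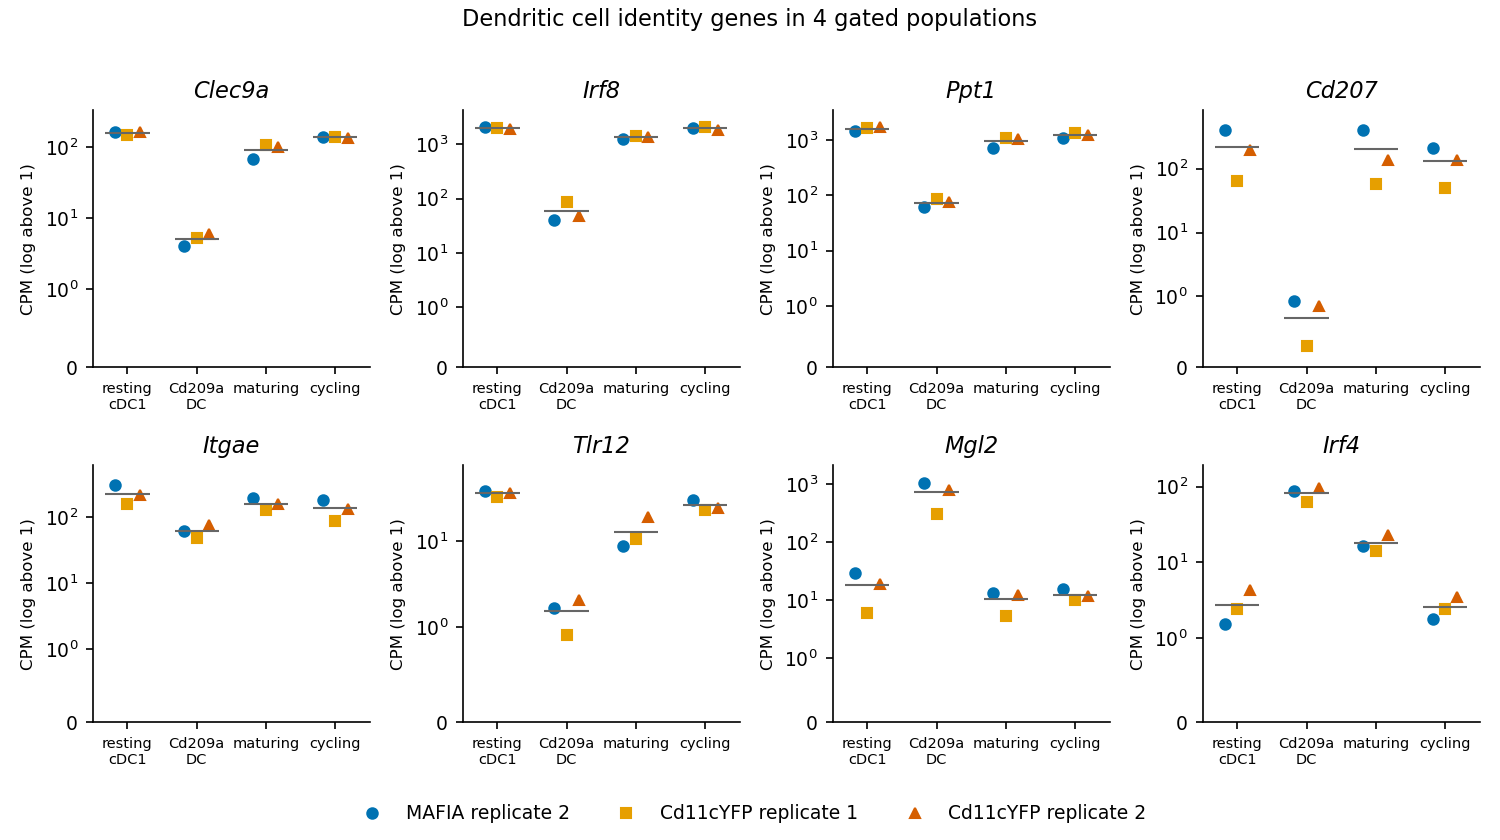
Normalised CPM (log axis above 1) of 8 dendritic cell genes in resting cDC1, Cd209a dendritic cells, maturing and cycling (proliferating) Xcr1 cells, with 1 point per library and a line at the mean of 3. Clec9a, Irf8 and Ppt1 are higher in each of the 3 Xcr1 populations than in Cd209a dendritic cells in every library, Mgl2 and Irf4 are highest there, and Cd207 in resting cDC1 runs from 64.3 to 411 CPM.

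The genes most different from Cd209a dendritic cells outside the gates were mostly absent or nearly absent from one side. Naalad2, a carboxypeptidase, was at 24.2, 6.37 and 8.83 CPM in resting cDC1 and had no UMI in any Cd209a dendritic cell, which made it at least 63.2-fold higher, with 3 counts over that group taken as the floor. On the same floor Cltrn, a membrane protein of amino acid transport, was at least 52.4-fold higher. Cyp8b1, an enzyme of bile acid synthesis, was at least 33.8-fold higher and Iqch at least 22.8-fold. On the other side Clec4g, a lectin, had 2 UMIs in all members and 212 in Cd209a dendritic cells, Podn had 2 against 62 and Rufy4 had 3 against 89. Pi16, a peptidase inhibitor, was at 0.416, 0.201 and 0.0730 CPM against 48.2, 10.8 and 15.3 (log2 -6.76, SE 0.35). Fcrls was lower by the same measure (log2 -7.08, SE 0.80), from 5 UMIs in members and 201 in the other population.

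Antigen presentation split by class. Of 18 MHC class I presentation genes 11 were higher in resting cDC1 and 0 lower (median log2 difference 0.54). Psmb9, a subunit of the immunoproteasome, was at 930, 803 and 683 CPM against 339, 293 and 262 (log2 1.43, SE 0.07, adjusted p = 9.54e-09). Psme1, a proteasome activator, was at 1334, 1401 and 1386 CPM against 550, 627 and 627 (log2 1.19, SE 0.06, adjusted p = 9.45e-09). Of 13 MHC class II presentation genes 1 was higher and 6 lower (median -0.19). H2-DMb2, a chain of the peptide exchange factor, was at 91.0, 97.4 and 99.8 CPM against 425, 368 and 424 (log2 -2.08, SE 0.08, adjusted p = 2.37e-09). Ctss, the protease that trims the invariant chain, was at 514, 529 and 498 CPM against 1230.2, 1515 and 1324 (log2 -1.40, SE 0.09, adjusted p = 9.78e-08). Near-identical H2 genes can share reads, and the values of single H2 genes are uncertain for that reason.

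Lysosomal hydrolases were mostly lower, 18 of 30 against 7 higher (median -0.52). Ppt1 was the largest exception, at 1432, 1655 and 1709.8 CPM against 60.3, 84.5 and 76.3 (log2 4.45, SE 0.09). Gusb, a beta-glucuronidase, was higher at 374, 277 and 295 CPM against 72.2, 52.0 and 59.5 (log2 2.36, SE 0.07, adjusted p = 4.48e-10). Ctsa, a carboxypeptidase, was lower at 16.4, 27.0 and 18.9 CPM against 121, 160 and 124 (log2 -2.70, SE 0.09, adjusted p = 6.57e-10). Toll-like receptors, which sense microbial molecules, divided by member: of 20 genes of the family and its adaptors 6 were higher and 10 lower. Tlr12, a sensor of parasite profilin, was at 38.0, 32.8 and 36.5 CPM against 1.67, 0.912 and 2.04 (log2 4.53, SE 0.26, adjusted p = 4.76e-08), and Tlr3, a sensor of double-stranded RNA, was higher by 3.82 (SE 0.22) on the log2 scale. Tlr5, the flagellin receptor, had 9 UMIs in members and 110 in Cd209a dendritic cells (log2 -5.33, SE 0.43, adjusted p = 7.81e-07). Without either Cd11cYFP library the lower Toll-like genes fell from 10 to 5.

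Interferon-stimulated genes were lower in resting cDC1, 15 of 24 against 4 higher (median -0.71), and without Cd11cYFP replicate 2, 2 were higher. Ifit3, an antiviral RNA-binding protein, was at 16.1, 7.37 and 7.78 CPM against 139, 120 and 117 (log2 -3.72, SE 0.31, adjusted p = 1.19e-06). Rtp4 was at 10.7, 7.42 and 4.04 CPM against 118, 104 and 92.2 (log2 -3.95, SE 0.25, adjusted p = 1.02e-07). Chemokines and their receptors were lower in 12 of 21 and higher in 4, and without Cd11cYFP replicate 2, 1 was higher. Growth factor receptors were lower in 7 of 15 and higher in 3. Csf1r, the receptor of macrophage colony-stimulating factor, was at 21.1, 14.3 and 12.1 CPM against 164, 136 and 132 (log2 -3.23, SE 0.13, adjusted p = 2.49e-09). Summed markers of plasmacytoid dendritic cells were at 114 to 157 CPM in members and 348 to 661 in Cd209a dendritic cells, and those of monocytes at 404 to 1032 and 1028 to 1773. None of the 5 plasmacytoid markers was at 0 in either population, and their part and that of the monocyte markers in these lists and in Csf1r was not tested. Of dead-cell uptake receptors 4 of 13 were higher, Clec9a and Cd36 among them, and 8 lower, such as Cd300a (log2 -4.32, SE 0.14). Costimulation and checkpoint genes were lower in 8 of 16 and higher in 3. Cd274, the ligand PD-L1, was at 5.48, 10.8 and 8.76 CPM against 50.2, 42.1 and 41.0 (log2 -2.40, SE 0.18, adjusted p = 5.36e-07).

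DNA replication genes were higher in resting cDC1 although both populations had fewer than 10 cell cycle UMIs per cell: 12 of 21 were higher and 0 lower (median 0.44). Gins2, of the replication helicase, was at 19.9, 24.5 and 23.2 CPM against 10.6, 8.66 and 11.5 (log2 1.14, SE 0.14, adjusted p = 2.59e-05). Depth moved with this difference, since Cd209a dendritic cells had medians of 16436 to 21091 UMIs per cell. With gates applied to cells reduced to 5000 UMIs all 21 were higher, and 5 were without Cd11cYFP replicate 1. The UMI limits were unchanged at that depth, so cells in cycle could pass as resting. Proliferating cells fell from 276, 326 and 621 to 104, 107 and 234. That setting therefore cannot separate depth from cell cycle here. The counts of all changed genes were 3661 without Cd11cYFP replicate 2 and 5619 with it.

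Maturing Xcr1 cells with Ccr7 differed from resting cDC1 at 4988 of 13031 genes. Of these 2368 were higher in resting cDC1 (18.2%) and 2620 lower (20.1%), and without Cd11cYFP replicate 2 the total was 2901. The maturation list was lower throughout: 32 of 32 genes, with a median log2 difference of -2.56 against 0.02 over all genes. Since the gate took Ccr7, a maturation gene, the direction of this list describes the 2 gates. Fscn1, which bundles actin in the dendrites of mature cells, was at 12.9, 9.23 and 14.6 CPM in resting cDC1 and at 626, 647 and 650 in maturing cells (log2 -5.74, SE 0.31). Socs2, a suppressor of cytokine signalling, was at 5.76, 3.81 and 3.79 CPM against 211, 214 and 190 (log2 -5.57, SE 0.14). Relb, an NF-kB subunit, was at 53.5, 46.2 and 47.5 CPM against 519, 387 and 316 (log2 -3.02, SE 0.11). Apol7c, one of a family of near-identical genes that can share reads, Asprv1, a protease, and Lad1 had log2 differences of -5.86, -5.91 and -5.77.

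Most cDC1 identity genes were lower in maturing cells. Every maturing cell had to hold Xcr1, so the presence of this program there was partly set by the gate. Naaa was required of members only. Of the 22 identity genes 16 were higher in resting cDC1, 1 was lower and 5 did not pass (median 0.77). Tlr3 was at 46.6, 121 and 89.5 CPM against 7.71, 43.2 and 40.0 (log2 1.41, SE 0.18, adjusted p = 7.27e-05). Tlr11, the other profilin sensor, was at 37.9, 43.9 and 46.6 CPM against 9.98, 28.6 and 19.3 (log2 1.14, SE 0.16, adjusted p = 0.000157). Clec9a was 1.70-fold higher (log2 0.77, SE 0.12, adjusted p = 0.000333). Irf8 was 1.48-fold higher, at 2094, 2024 and 1907 CPM against 1252, 1425 and 1396 (log2 0.57, SE 0.16, adjusted p = 0.0142). Batf3 (log2 0.05, SE 0.10, adjusted p = 0.720), Id2 (-0.02, SE 0.13, adjusted p = 0.918) and Cd207 (0.21, SE 0.15, adjusted p = 0.291) did not pass the test. Cd8a was the member lower in resting cDC1, at 83.1, 126 and 138 CPM against 196, 178 and 221 (log2 -0.78, SE 0.24, adjusted p = 0.0218). T cells also carry Cd8a, and summed T cell markers were at 49.4 to 69.6 CPM in resting cDC1 and at 96.2 to 310 in maturing cells. Their part in the Cd8a value was not tested.

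Presentation genes also differed from maturing cells. Of 18 MHC class I genes 11 were lower in resting cDC1 and 1 higher (median -0.34). Tapbpl, which edits class I peptides, was at 72.6, 58.8 and 52.6 CPM against 163, 107 and 95.3 (log2 -0.96, SE 0.10, adjusted p = 1.73e-05). MHC class II genes split, 4 higher and 6 lower. Marchf1, a ubiquitin ligase that removes class II and Cd86 from the surface, was at 114, 135 and 127 CPM in resting cDC1 and at 22.2, 60.1 and 61.6 in maturing cells (log2 1.35, SE 0.17, adjusted p = 5.42e-05). H2-DMb1 was at 956, 775 and 812 CPM against 522, 470 and 462 (log2 0.81, SE 0.09, adjusted p = 2.03e-05). Ifi30, a lysosomal thiol reductase, was lower, at 1195, 658 and 680 CPM against 2562, 1453 and 1300.1 (log2 -1.06, SE 0.10, adjusted p = 5.57e-06).

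Of 21 chemokine and chemokine receptor genes 11 were lower in resting cDC1 and 3 higher. Without Cd11cYFP replicate 2, 7 were lower, and without Cd11cYFP replicate 1, 1 was higher. Ccl22, a ligand of Ccr4, was at 32.9, 13.6 and 29.8 CPM against 1215, 468 and 703 (log2 -4.96, SE 0.18, adjusted p = 2.49e-09). Ccl5 was at 17.4, 84.2 and 59.1 CPM against 232, 1359 and 1544 (log2 -4.21, SE 0.24, adjusted p = 7.00e-08). Both are also members of the maturation list. Of 16 costimulation and checkpoint genes 11 were lower and 3 higher (median -1.78), and without Cd11cYFP replicate 2, 9 were lower and 0 higher. Cd70, the ligand of Cd27, was at 0.555, 0.351 and 0.851 CPM against 22.7, 18.8 and 15 (log2 -4.80, SE 0.31, adjusted p = 2.07e-07). Itgb8, an integrin chain that activates TGF-beta, was at 0.208, 0.451 and 0.122 CPM against 7.71, 6.35 and 7.39 (log2 -4.89, SE 0.48, adjusted p = 8.36e-06). Of 15 growth factor receptors 8 were lower and 1 higher, with Il7r at 3.26, 4.31 and 3.26 CPM against 32.7, 18.0 and 27.3 (log2 -2.83, SE 0.19, adjusted p = 3.92e-07). Summed B cell markers were at 29.2 to 40.1 CPM in resting cDC1 and 46.9 to 133 in maturing cells, and T cell markers, as given above, were also higher in maturing cells in each library. No marker of the 6 in each list was at 0, and their part in the Il7r value was not tested.

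Interferon-stimulated genes were lower in 20 of 24 and higher in 0 (median -0.71). Irf1, an interferon-induced factor, was at 28.6, 29.5 and 27.6 CPM against 142, 151 and 106 (log2 -2.18, SE 0.17, adjusted p = 1.06e-06). Gbp2, a guanylate-binding protein, was at 6.45, 6.02 and 2.94 CPM against 39.0, 35.2 and 32.1 (log2 -2.94, SE 0.21, adjusted p = 4.83e-07). Without the library block 5 of the 24 passed. Of the 21 DNA replication genes 15 were higher and 0 lower (median 0.60), and 9 were higher without Cd11cYFP replicate 2. Mcm2, a subunit of the replication helicase, was at 33.8, 29.9 and 28.4 CPM against 12.2, 18.5 and 15.9 (log2 0.91, SE 0.14, adjusted p = 0.000247). Lysosomal hydrolases were lower in 14 of 30 and higher in 7, and Lgmn, the protease legumain, was at 16.5, 26.4 and 16.5 CPM against 74.8, 82.9 and 59.7 (log2 -1.87, SE 0.15, adjusted p = 1.05e-06). Of the largest differences in favour of resting cDC1, Cyp8b1 was at 4.78, 5.11 and 6.76 CPM against 1.81, 0.530 and 1.67 (log2 2.09, SE 0.31, adjusted p = 0.000411). Nptxr and Ptprv had 69 and 83 UMIs in members, and 2 and 3 in maturing cells.

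**Figure D2:**
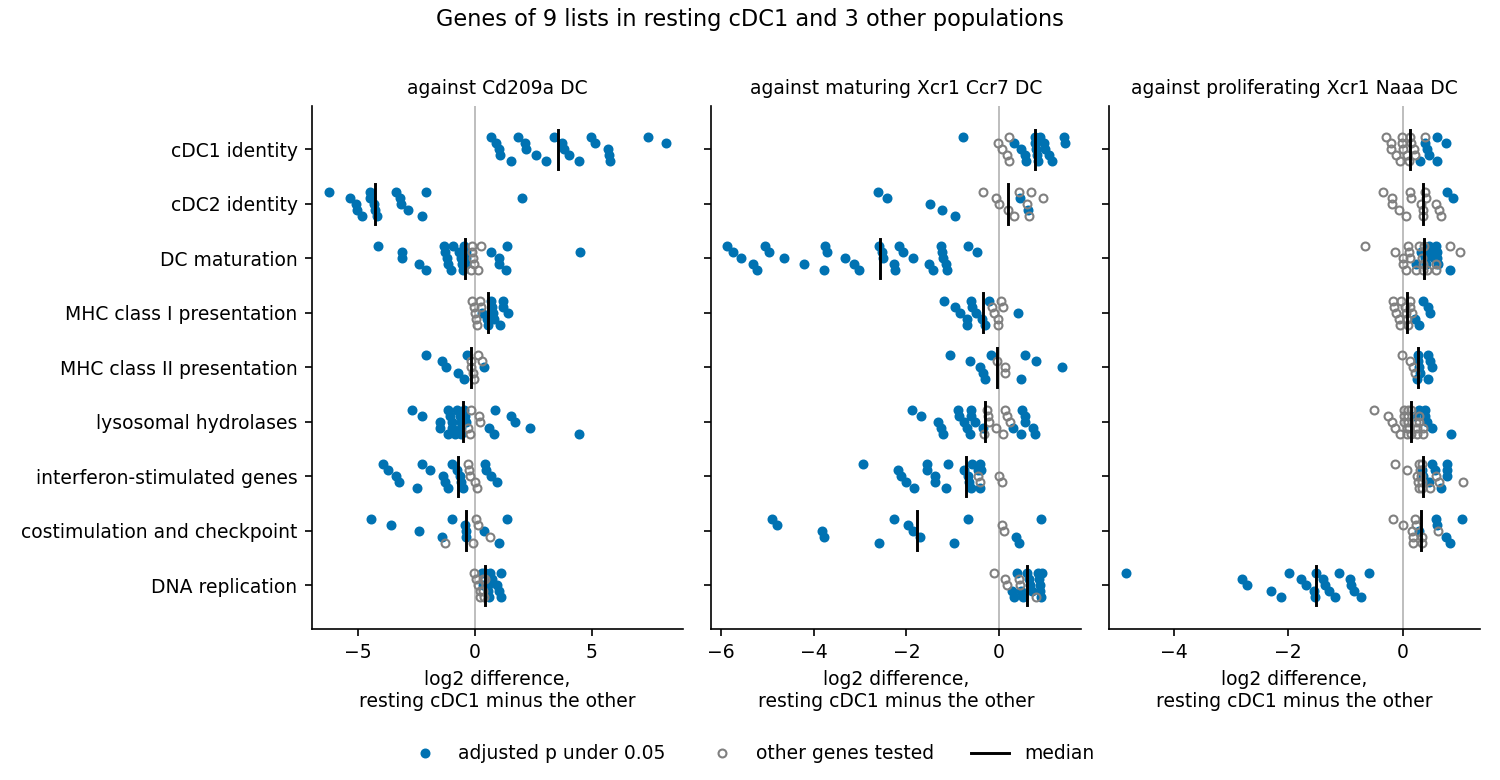
Log2 differences (resting cDC1 minus the other population) of the tested genes of 9 lists in each of the 3 comparisons, which share the resting sums. Filled points had an adjusted p under 0.05 and black bars are list medians. The cDC1 identity list has its median at 3.57 against Cd209a dendritic cells, the maturation list at -2.56 against maturing cells, and DNA replication at -1.52 against proliferating cells.

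Proliferating cells differed from resting cDC1 by the cell cycle limit, and their cell cycle genes are given as a description. Of 13031 genes 1738 were higher in resting cDC1 (13.3%) and 2169 lower (16.6%). All 18 mitosis genes and all 21 replication genes were lower, with medians of -5.17 and -1.52. With gates on cells reduced to 5000 UMIs the 18 mitosis genes were again lower (median -3.60), but 5 replication genes were higher and 11 lower (median -0.38). Hmmr, a spindle protein, was at 1.25, 0.702 and 0.827 CPM in resting cDC1 and at 112, 117 and 125 in proliferating cells. Tyms, which makes thymidylate, was at 24.3, 19.2 and 20.8 CPM against 153, 136 and 131, so it was present below the limit too. Depdc1b had no UMI in any member and was at least 111-fold lower, on a floor of 3 counts over the members. H2ac10, a histone gene with near-identical copies, was at 0.0693, 0.201 and 0.365 CPM against 26.7, 66.1 and 67.2. The total of 3907 changed genes was 2313 without Cd11cYFP replicate 1 and 1632 without Cd11cYFP replicate 2.

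In most of the other lists the genes that passed were higher in resting cDC1, by small amounts. The median over all genes was 0.04. Median depth of proliferating cells was 36543, 34044.5 and 31247 UMIs in MAFIA replicate 2, Cd11cYFP replicate 1 and Cd11cYFP replicate 2. Members had 25045, 23767 and 20117. The part of depth in these differences was not tested. Of 22 cDC1 identity genes 7 were higher and 0 lower, and 15 did not pass (median 0.14). The count higher was 2 without Cd11cYFP replicate 2, and with gates on cells reduced to 5000 UMIs 3 were higher and 1 lower. Irf8 (log2 0.01, SE 0.16, adjusted p = 0.966) and Clec9a (0.19, SE 0.11, adjusted p = 0.220) did not pass. Itgae was higher, at 303, 156 and 218 CPM against 183, 87.2 and 132 (log2 0.76, SE 0.13, adjusted p = 0.000681). Cd207 was at 411, 64.3 and 193 CPM against 211, 50.1 and 139 (log2 0.60, SE 0.14, adjusted p = 0.00710), a call that was lost with gates on reduced cells. Of 13 MHC class II genes 9 were higher and 0 lower (median 0.27), and without Cd11cYFP replicate 2, 4 were. Ctss was at 514, 529 and 498 CPM against 357, 377 and 345 (log2 0.51, SE 0.09, adjusted p = 0.000783). Vsir, the checkpoint ligand VISTA, was at 67.1, 56.1 and 56.8 CPM against 40.3, 32.6 and 33.6 (log2 0.76, SE 0.11, adjusted p = 0.000263). Of 32 maturation genes 13 were higher and 0 lower, but 6 and 5 without Cd11cYFP replicates 1 and 2. Of 24 interferon-stimulated genes 9 were higher and 0 lower, but 2 were higher without Cd11cYFP replicate 2 and 18 without MAFIA replicate 2.

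A few genes went the other way. Cholesterol synthesis genes were lower in 7 of 21 and higher in 1, and in 4 without Cd11cYFP replicate 2. Mvk, an early enzyme of that pathway, was at 6.86, 6.37 and 4.84 CPM against 10.8, 11.3 and 10.6 (log2 -0.89, SE 0.17, adjusted p = 0.00162). Cbfb, the partner of Runx factors, was at 63.2, 51.3 and 58.7 CPM against 93.9, 86.5 and 89.6 (log2 -0.64, SE 0.07, adjusted p = 2.63e-05). Cxcr4, the receptor for Cxcl12, was at 3.47, 23.9 and 22.5 CPM against 8.98, 37.7 and 44.0 (log2 -0.91, SE 0.15, adjusted p = 0.000613). Each of these was lower in resting cDC1 in all 3 libraries.

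The limits of the gate fell at different places on these programs. Along the cell cycle genes, summed replication genes stood at 358 to 441 CPM in cells with 0 UMIs, 603 to 694 with 1 to 3, 1282 to 1340 with 4 to 9, 2191 to 2232 with 10 to 29, and 1805 to 1945 with 30 or more. Members with 4 to 9 cell cycle UMIs had replication levels between members with 0 and the cells outside the limit. Along Ccr7, summed maturation genes stood at 2548 to 3340 CPM with 0 UMIs, 3244 to 3785 with 1, 4965 to 6094 with 2 to 4, and 9731 to 13319 with 5 or more. In each library the value at 1 UMI was nearer to that at 0 UMIs than to that at 2 to 4. The same cells' cDC1 identity sum was 8245 to 8710 CPM with 0 Ccr7 UMIs and 5933 to 6531 with 5 or more. A gene's UMIs grow with the depth of a cell, so these steps are not free of depth.

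**Figure D3:**
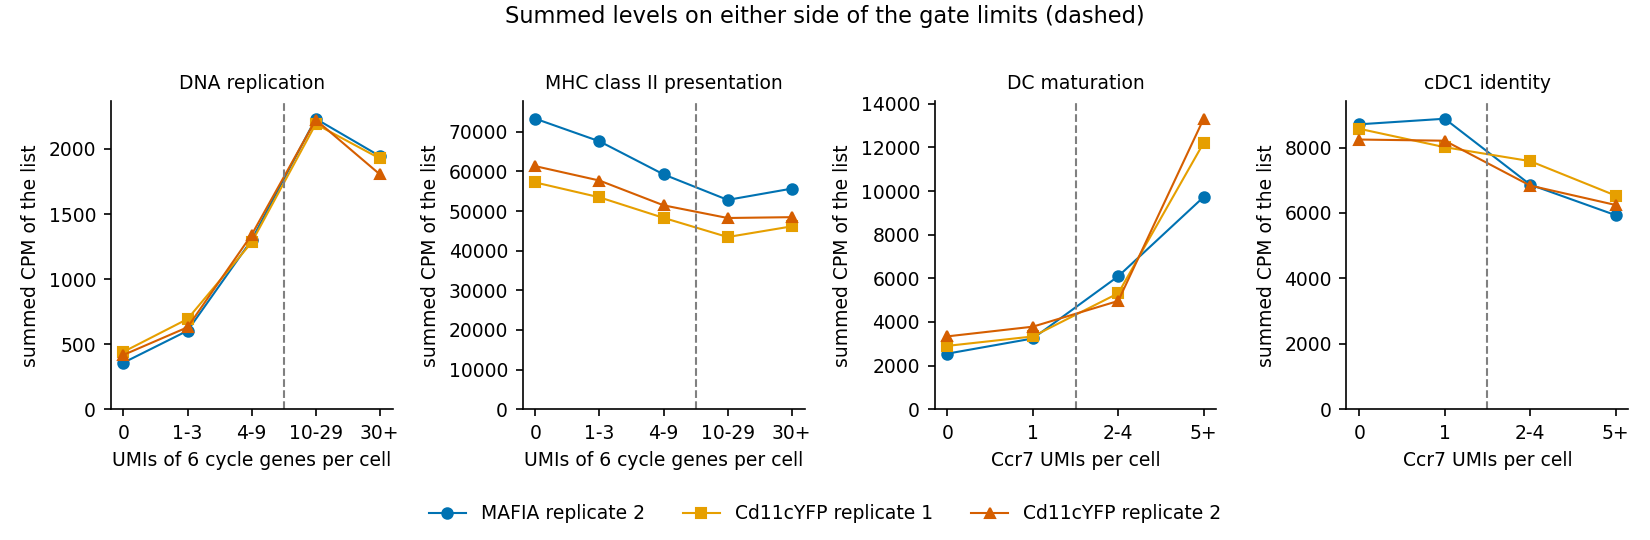
Summed CPM of gene lists in cells binned by UMIs of 6 cell cycle genes (left panels) or of Ccr7 (right panels), with 1 line per library and the gate limit dashed. Replication genes climb from 358 to 441 CPM at 0 cell cycle UMIs to 1282 to 1340 CPM just inside the limit, and maturation genes are at 9731 to 13319 CPM at 5 or more Ccr7 UMIs.

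Between the strains, resting cDC1 of MAFIA replicate 2 were set against those of the 2 Cd11cYFP libraries. Of 13717 genes 378 were higher in MAFIA (2.76%) and 700 lower (5.1%). The fit rests on 1 MAFIA library, which is assumed to vary like the 2 Cd11cYFP libraries, and has 1 residual degree of freedom. Genes of the sexes gave a check of the labels: Xist, expressed from an inactive X chromosome, was at 734 CPM in MAFIA replicate 2 and had 1 UMI in both Cd11cYFP libraries together, and the antisense gene Tsix, which overlaps it, was at 32.4 CPM. The Y-linked Ddx3y was at 0, 56.1 and 62.2 CPM, at least 291-fold lower in MAFIA, and Eif2s3y, Uty and Kdm5d at least 251-fold, 70.3-fold and 53.9-fold. The reporter YFP was at 0.274, 678 and 376 CPM. EGFP was at 0.411 CPM or less in every library and was too low to test. Csf1r (20.9, 14.3 and 12.1 CPM, adjusted p = 0.0576) and Itgax (126, 142 and 122 CPM, adjusted p = 0.809) did not pass the test.

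Of 22 identity genes 2 were higher in MAFIA and 2 lower, with a median of 0.00 against -0.01 over all genes. Irf8 was at 2065, 2024 and 1905 CPM and Clec9a at 165, 150 and 164. Tlr3 was lower in MAFIA, at 46.0, 121 and 89.4 CPM (log2 -1.19, SE 0.20, adjusted p = 0.0189), and Septin3 higher, at 306, 157 and 177 CPM (0.87, SE 0.13, adjusted p = 0.0129). Cd207, at 405, 64.3 and 193 CPM, did not pass (1.65, SE 0.51, adjusted p = 0.101). Its share of reduced cells with a UMI was 49.1% in MAFIA replicate 2, 12% in Cd11cYFP replicate 1 and 33.3% in Cd11cYFP replicate 2, against 0.0972% to 0.622% of B cells, so the 2 Cd11cYFP libraries differed as well.

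Immediate early genes, which are transcribed soon after a stimulus, and heat shock genes were lower in MAFIA in 14 of 19 and higher in 0 (median -2.58). Fos, an AP-1 subunit, was at 54.3, 1574 and 2229 CPM (log2 -5.13, SE 0.27, adjusted p = 0.000406). Dusp1, a phosphatase induced with it, was at 7.73, 346 and 505 CPM (-5.78, SE 0.31, adjusted p = 0.000429). Fosb was at 29.5, 452 and 779 CPM (-4.39, SE 0.37, adjusted p = 0.00206). The 2 Cd11cYFP libraries were high and MAFIA replicate 2 low for Fos, Dusp1 and Fosb. The heat shock genes did not all share that pattern. In members reduced to equal depth, Hspa1b had means of 0.231, 0.710 and 3.38 UMIs per cell, in the same library order. It was lowest in MAFIA replicate 2, but Cd11cYFP replicate 1 lay nearer to that library than to Cd11cYFP replicate 2. Hspa8 was highest in MAFIA replicate 2, with means of 5.76, 4.80 and 5.55 UMIs. Several transcripts of other lists were also lower in MAFIA replicate 2 than in both Cd11cYFP libraries. Ccl4, a chemokine, was at 13.7, 275 and 580 CPM (-4.96, SE 0.51, adjusted p = 0.00442). Il12b, the shared subunit of interleukin-12 and its relative, was at 1.23, 32.0 and 30.2 CPM (-4.65, SE 0.22, adjusted p = 0.000272). Nr4a3, a nuclear receptor, was at 15.9, 112 and 165 CPM (-3.13, SE 0.27, adjusted p = 0.00219). With 1 library against 1 the list median was -3.17 without Cd11cYFP replicate 1 and -1.93 without replicate 2.

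Interferon-stimulated genes went the other way, higher in MAFIA in 14 of 24 and lower in 0 (median 0.79). Ifit1 was at 23.5, 6.57 and 6.87 CPM (log2 1.80, SE 0.15, adjusted p = 0.00206). Stat2, which carries the interferon signal to the nucleus, was at 144, 57.7 and 68.1 CPM (1.19, SE 0.13, adjusted p = 0.00582). Irf7, the amplifier of the response, was at 661, 366 and 393 CPM (0.80, SE 0.11, adjusted p = 0.0125). DESeq2 called 9 of the 24. Of 18 class I genes 3 were higher and 0 lower, with H2-K1 at 2338, 1552 and 1569 CPM (0.58, SE 0.10, adjusted p = 0.0207). Cd40, a costimulatory receptor, was at 97.0, 54.3 and 53.8 CPM (0.84, SE 0.11, adjusted p = 0.00936), and Kit, a growth factor receptor, lower at 50.6, 104 and 94.4 CPM (-0.97, SE 0.13, adjusted p = 0.00985). Krtdap, Calm4 and S100a9, genes of keratinocytes or neutrophils, were at 6.84, 5.54 and 4.51 CPM in MAFIA replicate 2 and at 0 to 0.121 CPM in the other libraries, and DESeq2 called none of them. Summed neutrophil markers in members, S100a9 among them, were at 9.18 CPM in that library and at 0.509 and 0.548 CPM in the Cd11cYFP libraries. Those of thymic epithelium were at 120 CPM against 40.4 and 72.7. Of that list, Epcam had a UMI in 31.3%, 11.4% and 20.6% of members reduced to 5000 UMIs. Krt8, Krt5 and Ccl21a were each in at most 1.54% in any library. The part of neutrophil or epithelial RNA in the values of Krtdap, Calm4 and S100a9 was not tested.

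**Figure D4:**
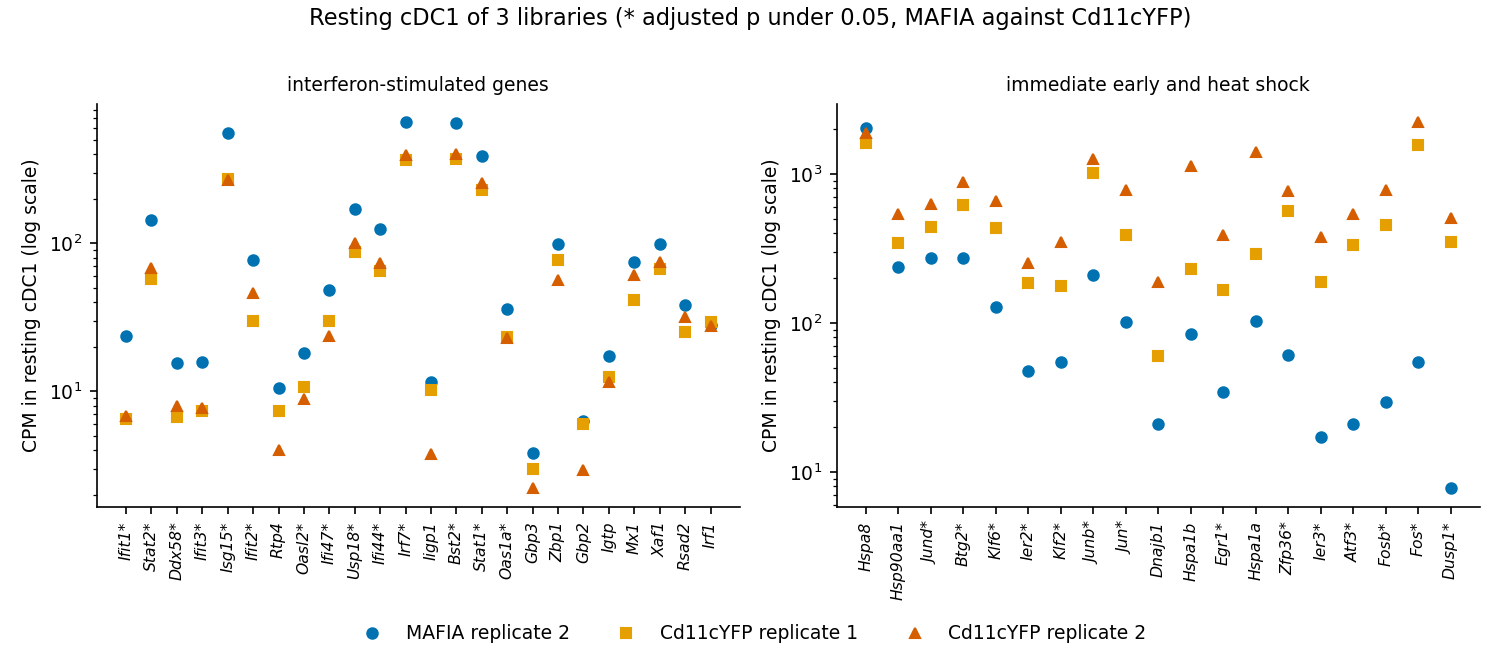
Normalised CPM (log axis) of interferon-stimulated genes (left) and immediate early and heat shock genes (right) in resting cDC1, with 1 point per library and an asterisk at genes with an adjusted p under 0.05. MAFIA replicate 2 is the highest for 14 starred genes on the left, such as Ifit1 at 23.5 CPM, and the lowest for 14 starred genes on the right, such as Fos at 54.3 CPM.

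Members also varied among themselves. With each cell reduced to 3000 UMIs the ratio of variance to mean over cells (Fano factor, 1 for counting noise alone) had a median of 1.03 over 1629 genes with a mean of at least 0.2 UMIs. Ranked by the lowest Fano factor over the 3 libraries, the gene after the abundant RNAs Malat1 and Rn18s was Cxcl9, a ligand of Cxcr3 induced by interferon-gamma, with Fano factors of 13.2, 10.5 and 10.9 at means of 1.69, 1.58 and 1.11 UMIs per cell. It had a UMI in 35.0%, 38.0% and 30.2% of reduced members, so most members had no UMI of it at that depth. S100a4, a calcium-binding protein of the cDC2 list, had Fano factors of 6.64, 7.69 and 5.51 at means of 0.292, 0.375 and 0.233 UMIs. Ifi27l2a, an interferon-stimulated gene, had Fano factors of 4.42, 4.59 and 4.47. These values are over cells of 1 library each and describe spread, not groups of cells.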

How the data were processed

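Whole-number UMI counts per gene and cell, deposited by the authors as 1 filtered matrix per library, were analysed. The submitters' processing notes name bcl2fastq 2.20, STAR 2.7.9a, Cell Ranger and GRCm39/mm39 without their roles. The study's methods name an older mouse assembly (mm10) for these libraries, so the build behind the counts is unsettled, and the gene-level counts carry no coordinates. The methods also describe preprocessing in Scanpy with limits on genes and mitochondrial share. Groups came from the sample titles, and 0 columns of unmapped samples were used.

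Cells were kept with 1000 to 7000 genes and at most 10% mitochondrial UMIs, and populations were gated on raw UMIs. No doublet caller was run, but cells with 3 or more UMIs of other lineages were removed in an alternative. The members and the gene lists were chosen with earlier results of these data known. Sums per library and population were tested in R 4.3.3 with edgeR 4.0.16 (TMM normalisation, filterByExpr, quasi-likelihood test, Benjamini-Hochberg adjustment, threshold 0.05). The population fit had the library as block, 13031 genes, 6 residual degrees of freedom and a biological coefficient of variation of 0.0954. The strain fit had 13717 genes, 1 residual degree of freedom and a coefficient of 0.116. Population contrasts were also compared between strains by an interaction term. Named genes were the 5 largest differences per direction with at least 50 counts and the same sign in every library, the 3 largest per gene list with at least 2 that passed, and every cDC1 identity gene, and 1 gene that this rule names is not reported here. Clec12a, Mertk, Chil3, Plac8 and the variable genes were named after their values were seen.

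To count cells with a UMI of a gene, each cell was first reduced to 3000 UMIs, and B cells (at least 3 UMIs of Cd79a and 1 of Ms4a1, none of Xcr1) gave the background. They could not do so for Sirpa, where their share was above that of the members. Promoters were the 250 bases before canonical GENCODE starts. Alternatives were DESeq2 1.42.0, no count filter, no library block, each library left out, and Xcr1 and Naaa limits of 1 and 3 UMIs. Others were a 5% mitochondrial limit, the lineage filter, and gates on cells reduced to 5000 UMIs with every UMI limit unchanged. On simulated data for the comparison with Cd209a dendritic cells (11560 genes) the fit recovered 34 of 59 genes changed 1.5-fold, 70 of 73 changed 2-fold and 68 of 68 changed 4-fold, and called 9 of 11345 unchanged genes. The simulation left out genes with low summed counts, gave every gene the same spread and changed few genes. Its rates are for that setting and not for the real data.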

Additional observations from a re-analysis of the deposited data

Results flagged for a closer look

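Some differences between resting cDC1 and the comparison populations differed between the strains by the interaction term, which passed for 86, 74 and 1 of 13031 genes against Cd209a dendritic, maturing and proliferating cells. Among the named genes, the log2 difference of Cdk1 against Cd209a dendritic cells was larger in MAFIA replicate 2 by 2.24 (adjusted p = 0.0453), with 4.16 there and 2.32 and 1.64 in the Cd11cYFP libraries. That of Ier3 was lower by 1.31 (value -1.31, adjusted p = 0.0179), at -1.95 against -0.79 and -0.51. Against maturing cells the interaction was -3.08 for Nr4a3 (adjusted p = 0.000114), with -4.66 in MAFIA replicate 2 and -1.81 and -1.36 in the Cd11cYFP libraries. For Marchf1 it was 1.26 (adjusted p = 0.0207), with 2.35 against 1.17 and 1.04. For Zfp36 it was -1.20 (adjusted p = 0.0113), with -1.56 against -0.53 and -0.19. All 3 libraries had the same sign for these 5 genes, and each interaction rests on 1 MAFIA library.

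In MAFIA replicate 1, outside the comparisons, 93 cells met the gate. Their median depth was 4751 UMIs and their summed B cell, T cell and neutrophil markers were at 256, 365 and 223 CPM.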

How the results depend on the processing

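No paired analysis was possible between the strains because their libraries came from different mice. Populations of 1 library were blocked by that library instead. Without the library block the changed genes were 3436 against Cd209a dendritic cells, 2828 against maturing cells and 1619 against proliferating cells, from 5619, 4988 and 3907. Gates on reduced cells, with the same UMI limits, gave 3079 against maturing cells, whose numbers fell to 17, 42 and 143. Between the strains DESeq2 called 693 genes and the fit without a count filter 1995, from 1078. With 1 library left out the counts ranged from 3661 to 5427, 2901 to 4555 and 1632 to 3922 for the 3 population comparisons, with each lowest value without Cd11cYFP replicate 2. Leaving out a Cd11cYFP library gave values with no test between the strains. On reduced gates 2 named genes between the strains reversed, Xcl1 to -2.62 and Ckap2l to 0.13. The mean share of members kept within 1 SD in every setting, but that SD was wide, 6.30 on a mean of 13.7%. With the lineage filter members fell from 585 to 302 in MAFIA replicate 2 (9.41% to 4.86% of cells). In Cd11cYFP replicates 1 and 2 they fell from 815 to 642 and from 2023 to 1661. Of the named genes 60, 57, 56 and 46 were followed in the 4 comparisons. Against proliferating cells 32 of 56 lost their call without the block, 17 of 53 with gates on reduced cells, 20 of 54 without Cd11cYFP replicate 2 and 13 of 56 without Cd11cYFP replicate 1, while against Cd209a dendritic cells at most 3 of 60 lost it in any setting. The cause of these changes was not tested. All low-count values are limited by depth: a gene under 3 counts in a population cannot be given a fold, and a share of reduced cells understates any gene near 1 UMI per cell. The strain comparison, with 1 MAFIA library, has no replicate check on that side.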
